A study of Sus scrofa with 7 samples.

Results

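The genes described here are 10 markers of astrocytes and tanycytes in the pig hypothalamus: GFAP, VIM, AQP4, SLC1A2, SLC1A3, GLUL, ALDOC, GJA1, FGFR3 and DIO2. Astrocytes are the glial cells that clear glutamate from synapses, take up potassium and water around vessels, and supply neurons with metabolites. Tanycytes are elongated glial cells that line the third ventricle of the hypothalamus, and they activate thyroid hormone and sense nutrients in the cerebrospinal fluid. Members were taken as rows of the authors' deposited table that carry the gene's symbol, and of several rows the tested row with the highest mean was used. This found 9 of the 10 genes among 16991 features, and all 9 had been tested by the authors. GJA1 had no row under that symbol, and it was read from the row named CONNEXIN, whose Ensembl ID the gene name table gives to GJA1.

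The series set hypothalami of 3 piglets whose distal ileum was infused with antibiotics against those of 4 piglets infused with saline. Their cross was Duroc x Landrace x Large White, they were at postnatal day 45, and every animal of both groups carried a T-cannula, a tube fixed into the distal ileum. The antibiotic group received 10 mL of saline with daily doses, in mg per kg, of 150 for ampicillin, 4 for gentamicin and 30 for metronidazole, and the control group received 10 mL of saline. RNA-seq had been made from the whole hypothalamus, so fewer cells of a type and less RNA per cell cannot be told apart in any value below.

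The authors' deposited table gives 1 FPKM value (sequenced fragments per unit of transcript length, relative to the total mapped) per gene and group. No spread between animals and no depth per library could be computed, and only the authors' q holds whatever replicate error their test used. A gene rose or fell where that q was under 0.05. By this rule 2531 of 13352 tested features rose (19.0%) and 2963 fell (22.2%), 41.1% in all, with a median log2 fold of -0.03 for antibiotic over control. The peptide genes that mark a hypothalamus block were present in both groups, and they did not stand at equal levels: PMCH had 18.6 FPKM in antibiotic and 282 in control, OXT 96.8 and 310.1, AVP 181 and 211, and HCRT 11.5 and 13.2.

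Most of the marker genes were among the more abundant transcripts of the hypothalamus. GFAP, the intermediate filament protein of astrocytes, ranked at place 10 of all features in antibiotic and at place 36 in control. From high to low, the deposited FPKM ran GFAP, ALDOC, GLUL, AQP4, SLC1A2, SLC1A3, GJA1, VIM, FGFR3 and DIO2 in antibiotic. The order was the same in control except that SLC1A3 stood above SLC1A2. With no spread between animals, it cannot be said which neighbours in this order differ. FGFR3 and DIO2 were the least abundant, and neither reached 40 FPKM in a group. The defining astrocyte genes were thus present at high levels in both groups, whereas VIM and DIO2 are also made by cells other than tanycytes, and RAX, a regulator that defines tanycytes, had no matched row.

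**Figure D1:**
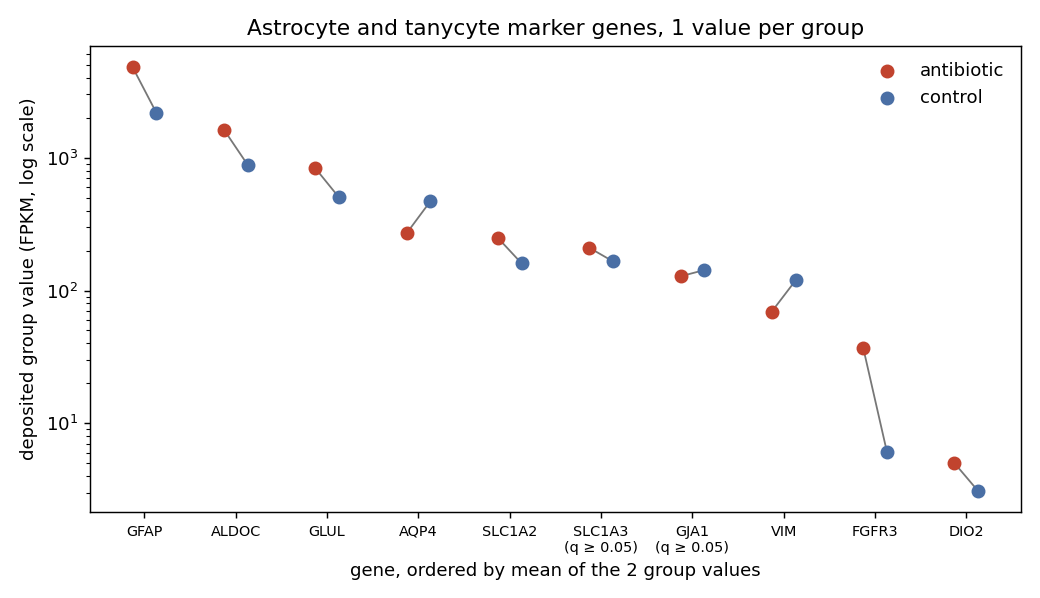
Deposited FPKM of the 10 marker genes on a log axis, with antibiotic (left point) and control (right point) joined for each gene. The GFAP points stand at 4819 FPKM in antibiotic and 2185 in control, the antibiotic point is lower for AQP4, VIM and GJA1, and SLC1A3 and GJA1 did not pass the q threshold.

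Of the 9 genes found by symbol, 6 rose (GFAP, ALDOC, GLUL, SLC1A2, FGFR3 and DIO2), 2 fell (AQP4 and VIM) and SLC1A3 did not pass, per the authors' q. Adding GJA1, which did not pass either, leaves 8 changed genes of 10, against 41.1% of all tested features. The median log2 fold of the 9 genes was 0.70, or 0.67 with GJA1, beside -0.03 over all tested features. The authors' own significant call, which also asks for a 2-fold change, held for GFAP and FGFR3, against 15.8% of tested features. Among tested features with a mean of at least 100 FPKM, 17.0% rose and 37.2% fell, with a median log2 fold of -0.27. In that range lay 7 of the marker genes, of which 4 rose, AQP4 fell and 2 did not pass. The genes had been proposed with results of these data known, so these counts are a description of the list and no test of it.

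**Figure D2:**
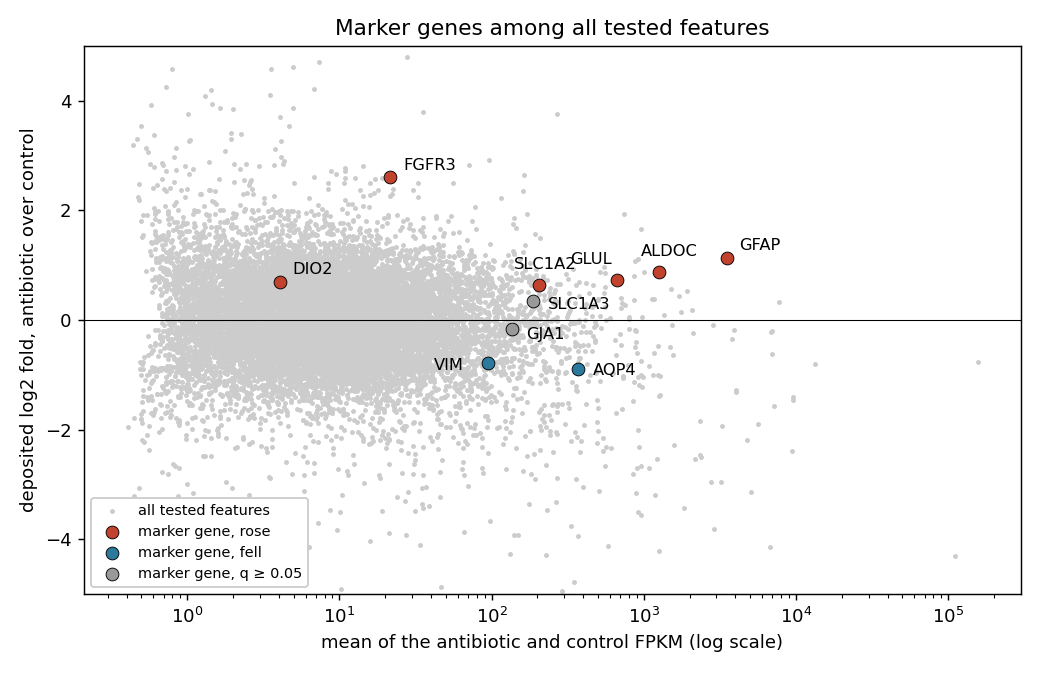
Deposited log2 fold of antibiotic over control against the mean of both group values in FPKM (log axis), for all tested features (small grey points; those beyond 5 on the vertical axis are not drawn) and the 10 marker genes (large points). FGFR3 stands at 2.61, and GFAP, ALDOC and GLUL lie above 0 at the abundant end, where the median of tested features with at least 100 FPKM was -0.27.

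The filament genes went in opposite directions as deposited and with upper quartile, trimmed mean and quantile scaling. When both groups were scaled to an equal summed FPKM, VIM stood at a log2 fold of 0.35, where the median of all tested features was 1.10. GFAP had 4819 FPKM in antibiotic and 2185 FPKM in control, a 2.20-fold rise with q = 0.00647 in the authors' deposited table. VIM encodes vimentin, the filament protein of immature and reactive astrocytes, tanycytes, vessel cells and microglia. VIM had 69.5 FPKM in antibiotic and 119 FPKM in control, a 1.72-fold fall with q = 0.000336 in that table, the smallest q it gives. The ratio of GFAP to VIM, in which the scaling of a group cancels, was 69.4 in antibiotic and 18.3 in control. In the deposited table the GFAP row lies on chromosome 12, 18700967 to 18711325 (10359 bases, Ensembl ID ENSSSCG00000017343), and the VIM row on chromosome 10, 48227004 to 48235670. The pig build susScr3 is named in the submitters' processing notes, but nothing there links it to these positions.

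A list of 8 tested genes held other intermediate filament proteins, nuclear lamins and partner proteins. Among them 1 rose (LMNA, a nuclear lamin), 1 fell (CRYAB, a small heat shock protein that binds filaments) and 6 did not pass. Their median log2 fold was 0.13, where rises made up 19.0% and falls 22.2% of all tested features. CRYAB had 244 FPKM in antibiotic and 349 in control (q = 0.0148 in the authors' table). NES, which encodes nestin of immature glia, was low in both groups, with 1.08 FPKM in antibiotic and 1.29 in control (q = 0.429).

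A further list held genes that are induced in reactive astrocytes. Without GFAP and VIM, among 14 tested genes 1 rose (7.14%, against 19.0% of all tested features), 3 fell (21.4%, against 22.2%) and 10 did not pass, by the authors' q (median log2 fold -0.22). CHI3L1, a secreted glycoprotein of reactive astrocytes, had 1.37 FPKM in antibiotic and 0.520 in control (q = 0.0333). The members that fell were CXCL10, a chemokine with 20.3 FPKM in antibiotic and 62.5 in control (q = 0.000336), S100A10, a calcium binding protein, with 74.4 and 124 (q = 0.0056), and CP, which encodes ceruloplasmin, with 23.7 and 44.9 (q = 0.0254). STAT3, a transcription factor of the reactive state, had 28.3 FPKM in antibiotic and 25.8 in control (q = 0.512 in the authors' table). C3, the complement component, had 189.5 FPKM in antibiotic and 196 in control (q = 0.854). Microglia and vessel cells also express several genes of this list.

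AQP4, the water channel of astrocyte endfeet around vessels, was lower in antibiotic as deposited and with upper quartile, trimmed mean and quantile scaling. With an equal summed FPKM its log2 fold was 0.23, where the median of all tested features was 1.10. AQP4 had 269.5 FPKM in antibiotic and 469.6 FPKM in control, with q = 0.000336 in the authors' deposited table. The deposited log2 fold is -0.90, a 1.87-fold fall, whereas the ratio of the printed FPKM gives -0.80, a 1.74-fold fall. AQP4 is among 16 of 15886 features whose deposited fold departs by more than 0.01 from the printed values, and no source used here says why. The ratio of GFAP to AQP4 was 17.9 in antibiotic and 4.65 in control. Its row lies on chromosome 6, 104383363 to 104394429, in the deposited table.

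Other endfoot genes gave 4 rises and 1 fall beside the fall of AQP4. Of the 8 tested genes for the endfoot and for water or potassium balance, 3 did not pass (median log2 fold 0.48), per the authors' q. Over all tested features 19.0% rose and 22.2% fell, with a median log2 fold of -0.03. AGRN, a proteoglycan of the vessel basement membrane, had 9.99 FPKM in antibiotic and 5.56 in control (q = 0.000336 in the authors' table). GPRC5B, an orphan receptor of glia, had 101 FPKM in antibiotic and 61.2 in control, and CLCN2, a chloride channel, had 7.10 and 3.80, with q = 0.000336 and 0.00229 in that table. SNTB1, a syntrophin, fell to 1.84 FPKM in antibiotic, against 3.47 in control (q = 0.000625). DTNA, which links syntrophin to the dystrophin complex, had 35.1 FPKM in antibiotic and 29.7 in control (q = 0.28), and DMD, dystrophin itself, had 7.65 and 9.62 (q = 0.196).

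Of the genes that clear glutamate and turn it into glutamine, SLC1A2 and GLUL rose and SLC1A3 did not pass. SLC1A2, the main glutamate transporter of mature astrocytes (GLT-1), had 249 FPKM in antibiotic and 160.2 FPKM in control, a 1.56-fold rise. Its q of 0.0449 in the authors' deposited table lies just under the threshold. SLC1A3, the other glial glutamate transporter (GLAST), which tanycytes and radial glia also carry, had 210.2 FPKM in antibiotic and 166 FPKM in control, a 1.27-fold difference that did not pass (q = 0.141). GLUL, glutamine synthetase, had 836 FPKM in antibiotic and 503 FPKM in control, a 1.66-fold rise with q = 0.00486 in that table. The ratio of SLC1A2 to SLC1A3 was 1.19 in antibiotic and 0.965 in control, and whether these transporters changed unequally was not tested. In the deposited table SLC1A2 lies on chromosome 2, 28064736 to 28136678, SLC1A3 on chromosome 16, 22924527 to 23009584, and GLUL on chromosome 9, 135904727 to 135968462. All 3 loci are longer than 50000 bases, a class in which 601 of 4683 tested features rose, 1095 fell and the median log2 was -0.15. Shorter loci leaned less to falls. In the class of 5000 to 20000 bases, which holds GFAP, VIM, AQP4 and GJA1, 946 of 3739 rose, 734 fell and the median was 0.13. Under 5000 bases, where ALDOC and FGFR3 lie, 257 of 1326 rose, 284 fell and the median was 0.09.

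In the wider glutamate and glutamine cycle 7 of 18 tested genes rose, 1 fell and 10 did not pass, by the authors' q (median log2 fold 0.20). The rises came to 38.9% and the fall to 5.56%, against 19.0% and 22.2% of all tested features. PC, pyruvate carboxylase, which lets astrocytes make glutamate from glucose, had 49.3 FPKM in antibiotic and 20.02 in control. GPT2, the mitochondrial alanine aminotransferase, had 84.9 FPKM in antibiotic and 35.8 in control, and the metabotropic receptor gene GRM5 had 41.0 and 21.7, each with q = 0.000336. SLC38A5, a carrier that releases glutamine from astrocytes, had 15.9 FPKM in antibiotic and 7.80 in control (q = 0.000336). On the neuronal side of the cycle, SLC1A1, the neuronal transporter, had 7.99 FPKM in antibiotic and 8.23 in control (q = 0.859 in the authors' table). The member that fell was ARL6IP5, a regulator of neuronal glutamate transport, with 31.4 FPKM in antibiotic and 43.6 in control (q = 0.0185).

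ALDOC, the aldolase isozyme of astrocytes that cleaves fructose bisphosphate in glycolysis, had 1630.0 FPKM in antibiotic and 885 FPKM in control. This was a 1.84-fold rise with q = 0.000336 in the authors' deposited table. Its row lies on chromosome 12, 46807766 to 46811677, and spans 3912 bases. ALDOC and GFAP took up 19.7% and 58.4% of the summed FPKM of the 10 genes in antibiotic, against 19.1% and 47.1% in control.

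Of 13 further tested genes for sugar breakdown and glycogen 8 rose, 2 fell and 3 did not pass, by the authors' q (median log2 fold 0.64). Rises were 61.5% and falls 15.4% of this list, against 19.0% and 22.2% of all tested features. PFKM, a subunit of the enzyme that commits glucose to glycolysis, had 88.4 FPKM in antibiotic and 38.3 in control (q = 0.000336). PYGM, a glycogen phosphorylase that astrocytes also use, had 89.9 FPKM in antibiotic and 51.5 in control, and LDHB, a lactate dehydrogenase subunit, had 107 and 58.0, both with q = 0.000336. PFKFB3, which makes an activator of glycolysis, had 22.9 FPKM in antibiotic and 13.5 in control (q = 0.000625). The members that fell were LDHA, the other lactate dehydrogenase subunit, with 16.5 FPKM in antibiotic and 24.6 in control (q = 0.00613), and GYG1, which starts glycogen chains, with 49.1 and 74.0 (q = 0.0105 in the authors' table). Neurons express most of these enzymes too, so the list does not speak of astrocytes alone.

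GJA1, the connexin 43 gene whose channels join astrocytes into a network, had 128 FPKM in antibiotic and 143 FPKM in control. This 1.11-fold difference did not pass (q = 0.466 in the authors' deposited table). Set against GJA1, ALDOC stood 12.7 times higher in antibiotic and 6.21 times higher in control. The CONNEXIN row lies on chromosome 1, 45543877 to 45557193. Of 6 other tested gap junction genes 2 rose (33.3%, against 19.0% of all tested features) and 4 did not pass (median log2 fold -0.04). Among those that rose, PANX2, a pannexin of neurons, had 38.0 FPKM in antibiotic and 7.25 in control (q = 0.000336 in the authors' table).

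FGFR3, a fibroblast growth factor receptor of astrocytes and their precursors, had the highest fold of the 10 genes. It had 37.2 FPKM in antibiotic and 6.11 FPKM in control, a 6.09-fold rise with q = 0.000336 in the authors' deposited table. Its row spans 4063 bases of chromosome 8, 337381 to 341443. The other receptors did not rise with it: FGFR2, which oligodendrocytes and astrocytes carry, fell to 37.5 FPKM in antibiotic, against 69.0 in control (q = 0.00138). FGFR1 had 42.5 FPKM in antibiotic and 34.8 in control (q = 0.317), and FGFR4 had 6.50 and 5.77 (q = 0.533). FGFR3 was thus the least abundant of FGFR1, FGFR2 and FGFR3 in control, whereas in antibiotic all 3 lay between 37.2 and 42.5 FPKM.

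The list of fibroblast growth factor genes, which also held the other receptors and feedback genes, had 15 tested genes. Of these 1 rose (6.67%, against 19.0% of all tested features), 5 fell (33.3%, against 22.2%), FGFR2 included, and 9 did not pass. Their median log2 fold was -0.08. FGF1, a ligand made by neurons and glia of the hypothalamus, had 43.0 FPKM in antibiotic and 26.7 in control (q = 0.000336 in the authors' table). FGF12, FGF13 and FGF14, which act inside neurons on sodium channels and are not secreted ligands, fell, and so did FGF10, a ligand made by tanycytes in mouse, with 0.32 FPKM in antibiotic and 0.83 in control (q = 0.00486). The feedback inhibitor gene SPRY2 had 17.7 FPKM in antibiotic and 16.2 in control (q = 0.642), and SPRY4 had 2.91 and 2.07 (q = 0.13).

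DIO2, the deiodinase by which astrocytes and tanycytes convert thyroxine into active thyroid hormone, was the least abundant of the 10 genes and had a pair of rows. The row used, which has the higher mean, had 5.01 FPKM in antibiotic and 3.08 FPKM in control, a 1.63-fold rise with q = 0.016 in the authors' deposited table. The other row had 2.32 FPKM in antibiotic and 2.88 FPKM in control, a 1.24-fold difference the other way that did not pass (q = 0.702). Both rows carry the same Ensembl gene and transcript ID and the same locus on chromosome 7, 109294228 to 109314481. Reads from that stretch cannot be divided between the rows, and no source used here says whether the counting used strand. Summed over both rows the log2 fold was 0.30, and the call of a rise rests on the choice of row.

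Of 16 other tested genes for thyroid hormone handling 3 rose, 3 fell and 10 did not pass (median log2 fold -0.03). Each direction held 18.8% of them, close to the 19.0% that rose and 22.2% that fell of all tested features. USP20 and USP33, deubiquitinases that stabilise the DIO2 protein, went in opposite directions, with USP20 at 8.46 FPKM in antibiotic and 4.70 in control (q = 0.000625 in the authors' table) and USP33 at 16.1 and 27.1 (q = 0.000336). HR, a corepressor that thyroid hormone induces in rodent brain, had 6.35 FPKM in antibiotic and 2.71 in control (q = 0.000336). KLF9, a further hormone target, had 11.7 FPKM in antibiotic and 12.9 in control (q = 0.542). The receptors THRA and THRB did not pass, with 60.2 and 5.78 FPKM in antibiotic and 44.1 and 5.68 in control (q = 0.0669 and 0.923). DIO3, which inactivates the hormone, was not tested by the authors.

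Further tanycyte genes did not move in a single direction. Of 18 tested genes 5 rose (27.8%, against 19.0% of all tested features), 5 fell (27.8%, against 22.2%) and 8 did not pass (median log2 fold 0.01). TGFB2, a growth factor of tanycytes and astrocytes, had 55.8 FPKM in antibiotic and 15.3 in control, and CNTFR, a cytokine receptor subunit, had 57.4 and 33.7, both with q = 0.000336 in the authors' table. PTN, a secreted growth factor, fell to 56.5 FPKM in antibiotic, against 134 in control (q = 0.000336), in the row used. PTN has 2 rows, as does DMD above, and the values of their other rows are not given here. LHX2, a transcription factor that mouse tanycytes need, had 2.76 FPKM in antibiotic and 6.22 in control (q = 0.00312). GPR50, an orphan receptor concentrated in tanycytes, had 1.70 FPKM in antibiotic and 3.91 in control (q = 0.00747). The remaining falls were those of FGF10 and SCN7A, and the remaining rises were those of IGFBP5, PPP1R1B and SLC2A1.

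Other astrocyte genes gave calls in both directions. Of 27 tested genes 8 rose (29.6%, against 19.0% of all tested features), 4 fell (14.8%, against 22.2%) and 15 did not pass (median log2 fold 0.22). APOE, the lipid carrier that astrocytes secrete, had 1182 FPKM in antibiotic and 308 in control (q = 0.000336 in the authors' table). GPR37L1, an astrocyte receptor, had 196 FPKM in antibiotic and 83.8 in control, ATP1B2, a sodium pump subunit of glia, had 1253 and 578, and SLC7A10, an astrocyte serine and alanine carrier, had 30.9 and 14.7, each with q = 0.000336. CLU, MLC1, HEPACAM and LFNG were the other members that rose. The members that fell were MT3, a brain metallothionein, with 639 FPKM in antibiotic and 1275 in control, PLA2G7, a phospholipase, with 7.92 and 16.6, NFIA, a transcription factor of gliogenesis, with 18.7 and 30.6, and SPARCL1, a secreted synapse organiser, with 925 and 1426 (q of 0.000336, 0.000336, 0.00448 and 0.0274 in the authors' table). SOX9, the transcription factor that defines astrocytes, had 16.1 FPKM in antibiotic and 13.8 in control (q = 0.287), and AGT, angiotensinogen, had 495 and 422 (q = 0.289).

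**Figure D3:**
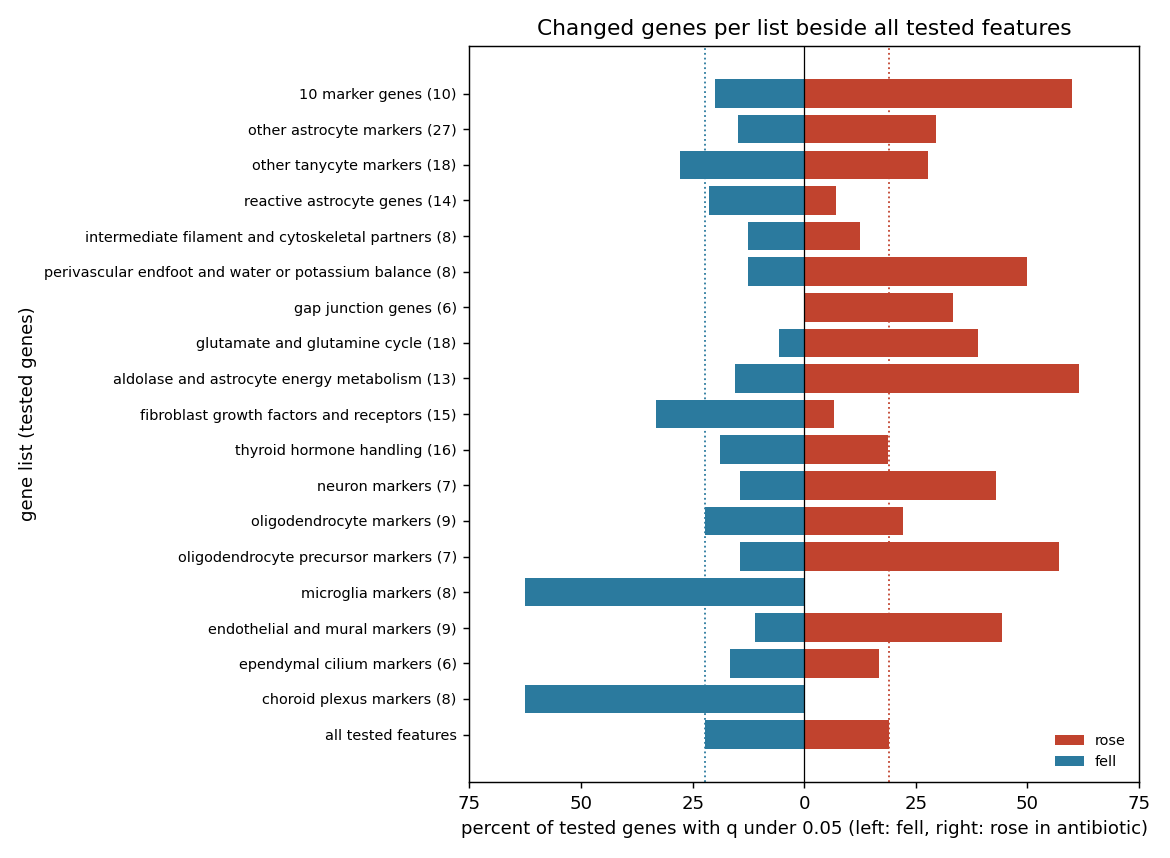
Percent of the tested genes of each list with q under 0.05 in the authors' table, with falls to the left and rises to the right of 0; the number of tested genes stands in parentheses and dotted lines mark 22.2% falls and 19.0% rises over all tested features. Rises outnumber falls for the 10 marker genes and for the other astrocyte, endfoot, gap junction, glutamate, energy, neuron, precursor, and endothelial and mural lists, whereas the microglia and choroid plexus lists show falls without rises.

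Markers of other cells in a hypothalamus block also differed between the groups, some upward and some downward. Their part in the results above was not tested. The summed FPKM of the 10 marker genes was 8253 in antibiotic and 4640.1 in control, 1.78 times as high. GFAP alone held 58.4% of this sum in antibiotic and 47.1% in control, and AQP4, VIM and GJA1 were lower in antibiotic. Summed neuron markers (7 matched of 10) stood at 1491 FPKM in antibiotic and 1209 in control, oligodendrocyte markers (9 of 10) at 12398 and 10363, precursor markers (7 of 8) at 438 and 318, and endothelial and mural markers (9 of 10) at 233 and 174. Ependymal cilium markers (7 of 10) were low in both groups, at 18.7 FPKM in antibiotic and 19.8 in control. Microglia markers (8 of 10) stood at 275 FPKM in antibiotic and 502 in control, and choroid plexus markers (9 of 10) at 351 and 712. The median log2 fold of the tested genes was -0.06 for neuron, 0.16 for oligodendrocyte, 0.61 for precursor, 0.46 for endothelial and mural, -0.18 for ependymal, -0.73 for microglia and -1.01 for choroid plexus markers. The neuron sum and median thus differ in sign, since NEFM, TUBB3 and NEFL were higher and the other 4 tested genes lower in antibiotic.

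Within these lists the calls were as follows in the authors' table, beside 19.0% that rose and 22.2% that fell of all tested features. Of 8 tested microglia markers 5 fell and 3 did not pass, with C1QA, a complement gene, at 48.5 FPKM in antibiotic and 131.8 in control (q = 0.000336). Of 8 tested choroid plexus markers 5 fell and 3 did not pass, and TTR, the carrier of thyroxine and retinol in the cerebrospinal fluid, had 70.6 FPKM in antibiotic and 289 in control (q = 0.000336). Of 7 neuron markers 3 rose (NEFM, TUBB3 and NEFL), STMN2 fell and 3 did not pass, and NEFM, a neurofilament gene, had 220.2 FPKM in antibiotic and 60.3 in control. Of 9 oligodendrocyte markers 2 rose (CNP and MAG), 2 fell (UGT8 and ERMN) and 5 did not pass. Of 7 precursor markers 4 rose, PTPRZ1 fell and 2 did not pass. Of 9 endothelial and mural markers 4 rose, ACTA2 fell and 4 did not pass, and VWF had 16.6 FPKM in antibiotic and 4.06 in control (q = 0.000336). Of 6 ependymal cilium markers 1 rose (FOXJ1), 1 fell (CCDC153) and 4 did not pass. The rows used for APOE, CXCL10, CP, CRYAB, PC, CLCN2, SLC2A1, MT3, THRA, ERMN and CCDC153 share bases with another row, and reads of the shared stretch cannot be divided between them from the deposited values. No row of a marker gene other than DIO2 overlaps another.

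The folds of the marker genes depended on how the group columns were scaled. The summed FPKM was 563424 in antibiotic and 1.23e+06 in control, and 3 rows (the mitochondrial ND3, a row known only as ENSSSCG00000022768 and 5_8S_rRNA) held 22.9% of it in antibiotic and 47.1% in control. Scaling to equal upper quartiles added 0.13 to every log2 fold and trimmed mean scaling 0.04, and neither changed a direction or brought a marker gene other than ALDOC (1.01 with upper quartiles) to a 2-fold change. Quantile normalization moved the abundant genes most, to 2.17 for GFAP, 1.98 for ALDOC, 1.59 for GLUL and 1.07 for SLC1A2, and AQP4 stood at -0.21, VIM at -0.56 and GJA1, on the other side of 0 from its deposited -0.16, at 0.11. Scaling both groups to an equal summed FPKM added 1.13 to every feature, which brought AQP4 to 0.23, VIM to 0.35 and GJA1 to 0.97, and set the median of all tested features at 1.10. Relative to that median AQP4, VIM and GJA1 stayed on the lower side, and the same shift would turn any fall named above that is smaller than it. Ratios between marker genes in a group, such as GFAP to VIM, do not change with a common factor.

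**Figure D4:**
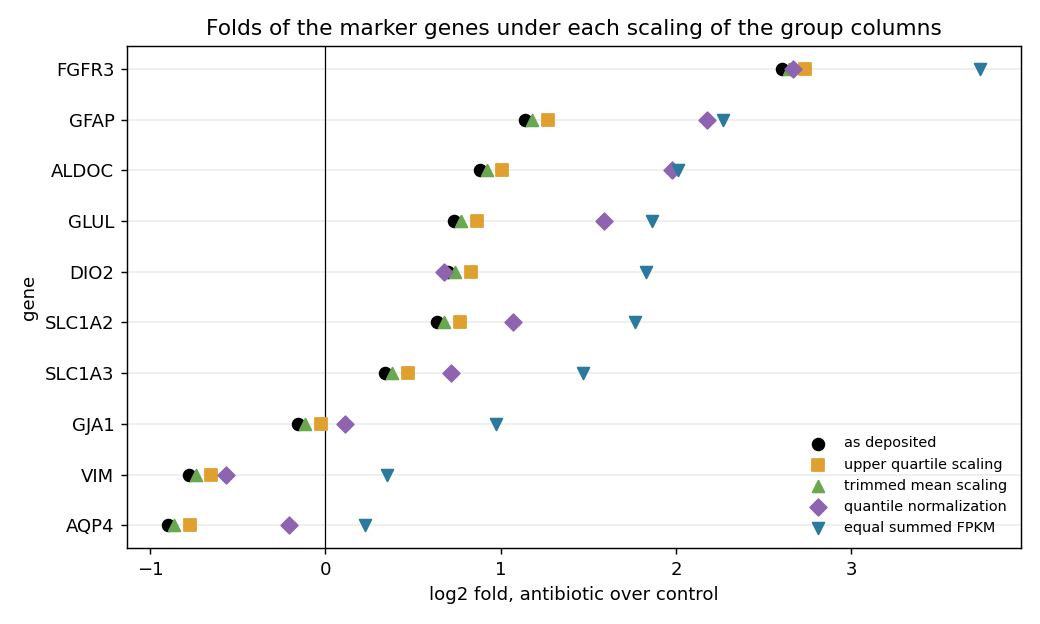
Log2 fold of antibiotic over control for each marker gene as deposited and under each of 4 scalings of the group columns. FGFR3 is highest and AQP4 lowest as deposited (2.61 and -0.90), AQP4, VIM and GJA1 cross 0 with the equal sum (0.23, 0.35 and 0.97), and GJA1, at -0.16 as deposited, also with quantile normalization (0.11).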

How the data were processed

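Hypothalami of 3 antibiotic and 4 control piglets were sequenced after Trizol extraction and library preparation with an Illumina TruSeq RNA kit, per the labels' protocols. Bowtie 0.12.2, susScr3 and mm8 appear in the submitters' processing notes with no stated role, and no source used here gives the annotation or the strand handling. Per the file headers, the authors deposited 1 FPKM value per gene and group, a log2 fold without pseudocount, a test statistic (a score, not used here), and p-values and q-values. The smallest deposited p-value is 5e-05, shared by 2081 tested features with q = 0.000336. The authors' significant column was checked in all rows and marks a q under 0.05 together with a change of at least 2-fold.

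Groups were taken from the sample titles. After 6 blank rows were left out, 16991 features remained. Since no column holds a single library, the planned limma test, blocking and leaving out libraries could not be run, and all calls are the authors' q. How far those q-values carry the spread between animals is unknown. Depth per library is unknown, so no interval is given.

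The members and the 17 other gene lists were chosen with earlier results of these data known. Of 242 symbols in those lists 202 were matched, 23 through the Ensembl ID, and marker genes already described were left out of the list counts. Named genes are all members, the 4 tested genes of each list with the smallest q (ties by larger fold), and others chosen after their values were seen, among them members of counts of 5 or fewer. Some genes that this rule names are not reported here. Python 3.11.15, pandas 2.3.3 and numpy 2.4.6 were used. The upper quartile, trimmed mean and quantile steps were tested on simulated data with a known shift. The equal sum was run there without a check of its result. The simulated data held far fewer changed features than these data, so the test shows only that the steps work in that simpler setting. Alternatives were upper quartile, trimmed mean (30% of log ratios and 5% of means trimmed on each side) and quantile scaling, pseudocounts of 0.1 and 1, a minimum of 5 FPKM, a q of 0.01 and other uses of double rows. Equal summed FPKM, the ratio of printed FPKM and GJA1 by ID were chosen after seeing the data.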

Additional observations from a re-analysis of the deposited data

How the results depend on the processing

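With 1 value per group, no library could be left out, and no scaling could be carried into the authors' q. No paired analysis was possible because the table holds no column for a single library. The count of 8 changed marker genes (of 9 found by symbol) was 6 at a q of 0.01, where SLC1A2 and DIO2 no longer passed. At that q 28.3% of all tested features changed. The count was 7 when every row of a symbol had to pass, and 8 with a minimum of 5 FPKM. The 2-fold changes numbered 2 as deposited, 3 with equal upper quartiles, 5 after quantile normalization and 6 with an equal summed FPKM, all of them rises. As deposited, 15.8% of all tested features changed at least 2-fold with a q under 0.05. The share of all features was not computed for the other scalings. With an equal summed FPKM the median of all tested features, 1.10, itself lay above the 2-fold limit of 1, so that count is no result about the marker genes. The median log2 fold of 0.70 became 1.83 with an equal summed FPKM and moved by less than 1.5-fold under the other alternatives run. AQP4 (0.23), VIM (0.35) and GJA1 (0.97, against -0.16 as deposited) changed sign with an equal summed FPKM, whose construction adds 1.13 to every feature, and GJA1 also did with quantile normalization (0.11). Of 80 recomputed folds of single marker genes 66 moved by less than 1.5-fold, 12 by more, and 2 were the sign changes of AQP4 and VIM. Those of GJA1, which did not pass the authors' q, are counted by size. The other lists held 93 changed genes of 190 tested (48.9%, against 41.1% of all tested features), and the low FPKM of DIO2 limits what its values can show.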

Other observations

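The gene annotation in the authors' deposited table gives 11 rows a Gene Ontology term that names astrocytes, and only GFAP and VIM of them are among the marker genes. This grouping was chosen after the values were seen. Of the 11 rows 6 rose, 2 fell and 3 did not pass by the authors' q (median log2 fold 0.66), beside 19.0% that rose, 22.2% that fell and a median of -0.03 over all tested features. LAMB2, a laminin chain of basement membranes, had 13.7 FPKM in antibiotic and 6.96 in control, and LAMC3, another laminin chain, had 1.87 and 1.06, both with a q under 0.05 and neither reaching the 2-fold change of the authors' own significant call. BIN1, a membrane-bending protein that oligodendrocytes and neurons also make, had 224 FPKM in antibiotic and 142 in control. PRPF19, a splicing factor, had 77.0 FPKM in antibiotic and 42.4 in control, and GPR37L1 is described above. TSPAN2, a tetraspanin of oligodendrocytes, fell with VIM, at 6.003 FPKM in antibiotic and 10.3 in control. EIF2B5, a subunit of a translation initiation factor, was among those that did not pass, at 16.4 FPKM in antibiotic and 14.001 in control.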
